A study of Homo sapiens with 8 samples.

Results

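The baseline transcriptome of control C4-2 cells was described from the 2 polyA RNA libraries of cells bearing a control hairpin, shCTRL, over the 18892 gene rows of the deposited table. These were 2 of the 8 libraries of the series, chosen by their labels alone. The other 6 libraries (2 of polyA RNA from cells with a hairpin against CDCA8, and small RNA from 2 control libraries and 2 with a hairpin against EZH2) were not used, so no knockdown effect is given. C4-2 is a human prostate cancer cell line obtained from ATCC, and it was cultured in RPMI medium with fetal bovine serum and given no treatment. The controls also carry a hairpin construct, so they are not parental cells, and the labels do not say whether the replicates came from separate cultures.

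C4-2 was derived from LNCaP, a line grown from a lymph node metastasis of prostate cancer, and it is widely used as a model of disease that grows with little androgen. Luminal cells of the prostate line the ducts, carry simple epithelial keratins and secrete proteases such as prostate-specific antigen. Their identity rests on androgen signalling and on transcription factors that include the pioneer factor FOXA1 and the homeobox factor HOXB13. Basal cells, neuroendocrine cells, fibroblasts, endothelium and leukocytes of the prostate carry other markers, which show what a luminal culture lacks.

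Values are RPM, reads scaled to a common library total, as the authors deposited them, and the pair of values after each gene is replicate 1 and then replicate 2. The libraries were scaled by 53305010 and 46709612 reads, of which 21920570 and 20380764 fell in the gene rows (41.1% and 43.6%). One read was therefore worth 0.0188 and 0.0214 RPM, and a count of 0 allowed up to 0.0563 and 0.0642 RPM, which covers counting error only. A gene was called on with at least 1 RPM in both libraries, off below 0.1 RPM in both, and intermediate otherwise. By this rule 11579 genes were on (61.3% of rows), 3465 were off (18.3%) and 3848 were intermediate. These shares are the background for the counts on and off in each list below. At least 100 RPM in both libraries was called abundant, and 688 genes reached it (3.64%). RPM is not divided by gene length, and no lengths were used here, so an order of genes is an order of reads taken and not of transcript molecules.

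Off describes what the table holds for a gene. RPL21, a ribosomal protein gene that every cell uses, was listed at 0 in both libraries, and RPL17 had 44 and 31 reads. Reads of genes with near-identical copies or overlapping neighbours can be lost in counting, and the labels used here do not say how such reads were handled. The 2 libraries had 1326 and 1598 rows at 0, and 602 genes (3.19%) were at 0 in both.

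Reads were concentrated on the translation machinery. EEF1A1, the elongation factor that brings aminoacyl-tRNA to the ribosome, took the most reads with 8469.9 and 8320.1 RPM, and alone held 2.06% and 1.91% of all reads in the rows. EEF2, which moves the ribosome along the message, followed with 4147 and 4346 RPM. The ribosomal RNA precursor RNA45S5 came next with 3279 and 3961 RPM in these polyA libraries. RPLP0, a protein of the ribosomal stalk, had 2356 and 2436 RPM. FTH1, the ferritin heavy chain that stores iron, had 2266 and 2257 RPM. The next genes were RPS2, ACTB, RPL3, RPL4, GAPDH, RPL13, EEF1G and RPS6, all between 1442 and 2233 RPM. KLK3, which encodes prostate-specific antigen, ranked 14 of all genes, and PABPC1, the poly(A)-binding protein, ranked 15 with 1423 and 1430.1 RPM. EEF1A1, ACTB and many ribosomal protein genes have near-identical relatives or pseudogenes, so their values are uncertain.

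The 10 genes with most reads held 7.27% and 7.18% of the reads in the rows, and the top 100 held 23.5% and 23.3%. In replicate 1, 793 genes made up 50% of the reads and 5320 genes made up 90%; in replicate 2 it was 784 and 5188 genes. Of the 84 cytosolic ribosomal protein genes in the rows, 80 were on (95.2%, against 61.3% of all rows) and 73 abundant (against 3.64%). Together they held 12.6% and 12.3% of the reads. Ribosomal protein genes were 52 of the 100 genes with most reads. All 11 genes of the translation elongation list were on (against 61.3% of all rows), with 4.42% and 4.20% of the reads. This list also holds PABPC1, TPT1 and EIF4A2, so the share is not that of elongation factors alone. EEF1A2, the tissue-restricted isoform of EEF1A1, had 378 and 413 RPM, and TPT1, the translationally controlled tumour protein, had 1409 and 1378 RPM.

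**Figure D1:**
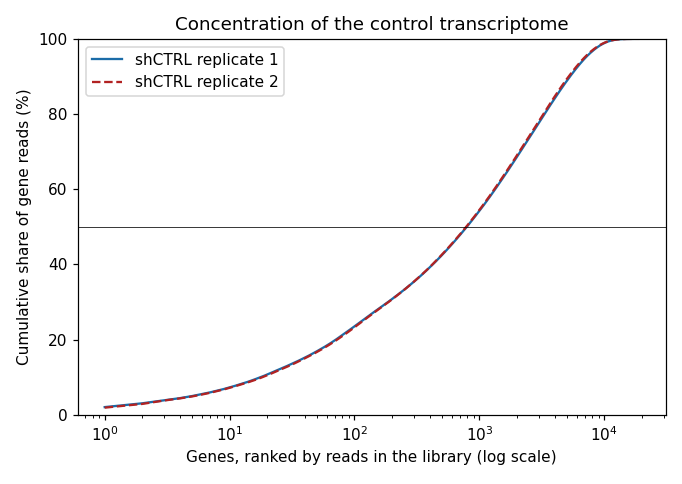
Cumulative share of the reads in the gene rows (vertical axis, percent) against genes ranked by reads within each library (horizontal axis, log scale), for the 2 control libraries; the horizontal line marks 50%. The curves lie on each other and cross the line at 793 and 784 genes.

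The 15979 rows that RefSeq lists as protein coding held 97.4% and 97.2% of the reads, and 10868 of them were on (68.0%). Of 1146 long non-coding RNA rows, 344 were on (30.02%), and these rows held 0.874% and 0.865% of the reads. Only 2 of 254 microRNA rows and 3 of 188 small nucleolar RNA rows were on in these polyA libraries. There were 0 rows of the mitochondrial genome, so its transcripts are not analysed here. Among 21 long non-coding RNAs listed by name, 15 were on (71.4%, against 61.3% of all rows). DANCR had 201 and 216 RPM, and NEAT1, the scaffold of paraspeckles, 123 and 129 RPM. GAS5, a host of small nucleolar RNAs, had 62.7 and 65.4 RPM. HOTAIR, with 1 and 3 reads, and MEG3, with 0 and 1, were off. SCHLAP1 and PCAT1, named for prostate cancer, were on with 1.67 and 1.99 RPM and 6.17 and 6.29 RPM. The prostate transcripts PCA3 (5 and 1 reads) and PCGEM1 (1 and 0 reads) were off.

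KLK3, KRT8 and KRT18, 3 markers of luminal prostate cells, were all abundant. KLK3 had 77506 and 68968 reads, or 1454 and 1477 RPM. The simple epithelial keratins KRT8 and KRT18, which pair in 1 filament, had 198 and 216 RPM and 196 and 215 RPM. They ranked 231 and 233 of all genes, and in each library they lay within a few RPM of each other.

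Of the 26 luminal prostate genes, 23 were on (against 61.3% of all rows), 16 were abundant and 1 was off. Their median level over both libraries was 150 RPM, against 3.67 RPM over all rows. Transcription factors of luminal identity were abundant. FOXA1, which opens chromatin for other factors, had 315 and 348 RPM. HOXB13, the posterior homeobox factor of prostate, had 265 and 293 RPM. SPDEF, an ETS factor of secretory epithelium, had 141 and 164 RPM. For all 3 the libraries lay close together, with replicate 2 slightly higher.

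Other members of the luminal list encode enzymes, chaperones and surface proteins. TMPRSS2, an androgen-regulated membrane protease, had 444 and 474 RPM. PMEPA1, a membrane protein that limits TGF-beta signalling, had 229 and 245 RPM. FOLH1, which encodes prostate-specific membrane antigen, had 194 and 197 RPM. SLC45A3, which encodes prostein, had 139 and 156 RPM, and FKBP5, a chaperone of steroid receptors, had 121 and 126 RPM. STEAP2, a metalloreductase, had 132 and 105 RPM and its relative STEAP1 31.0 and 29.5 RPM. The cold-sensing channel TRPM8 had 68.8 and 72.0 RPM.

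Several genes known for normal or cancerous prostate were low. ACPP, prostatic acid phosphatase, had 4.26 and 4.52 RPM. AMACR, a peroxisomal racemase used to stain prostate cancer, had 1.78 and 1.35 RPM. MSMB, a major secreted protein of seminal fluid, had 8 and 5 reads (0.150 and 0.107 RPM). These genes stood far below KLK3 in reads in both libraries.

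**Figure D2:**
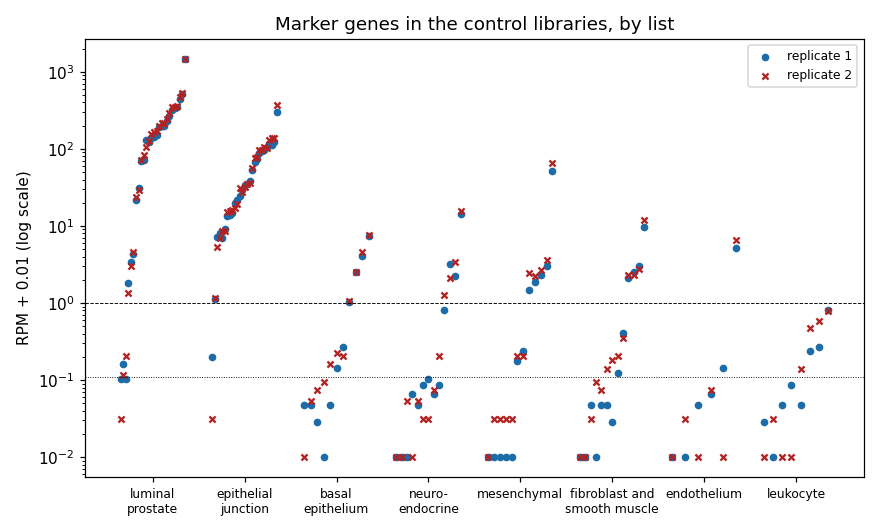
RPM plus 0.01 on a log scale (vertical axis) for the members of 8 marker lists (horizontal axis), 1 point per gene and library (circles replicate 1, crosses replicate 2); the dashed line marks 1 RPM and the dotted line 0.1 RPM, each plus 0.01. Luminal and epithelial junction genes lie mostly above 1 RPM, and most points of the other lists lie below it.

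The tissue kallikreins, secreted serine proteases encoded side by side on chromosome 19, were on at one end of their cluster. In RefSeq order, the first 5 of the 13 genes in the rows were all on. KLK1 had 2.36 and 2.10 RPM, KLK15 12.1 and 12.8 RPM, KLK3 1454 and 1477 RPM, KLK2 336 and 346 RPM, and KLK4 347 and 363 RPM. Of the 8 that follow, only KLK14 was on, with 3.002 and 3.49 RPM. KLK7 and KLK8, proteases of skin, were off with 3 and 2 reads and with 1 and 0 reads. KLK5, KLK10, KLK11, KLK12 and KLK13 were intermediate, the highest being KLK12 with 0.525 and 0.450 RPM. The 13 genes together held 0.524% and 0.505% of the reads, most of it in KLK3. KLK2 and KLK3 are close relatives in sequence, so their split of reads is uncertain.

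**Figure D3:**
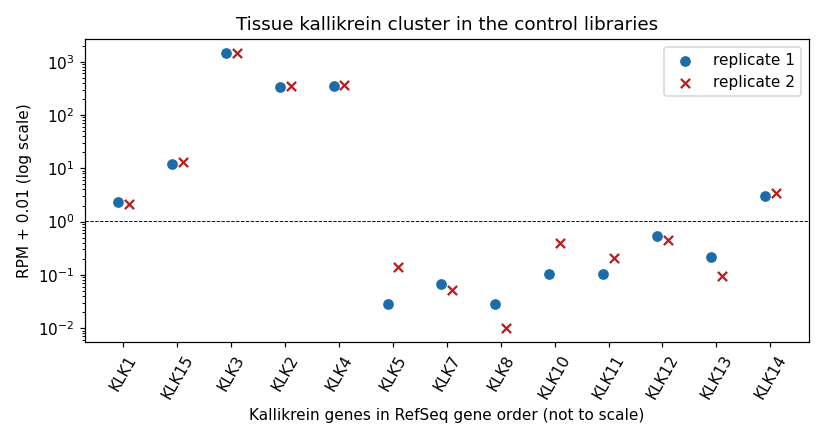
RPM plus 0.01 on a log scale (vertical axis) of 13 tissue kallikrein genes in RefSeq order along the cluster (horizontal axis, not to scale), circles for replicate 1 and crosses for replicate 2; the dashed line marks 1 RPM. KLK3, KLK2 and KLK4 lie above 300 RPM, and the genes from KLK5 to KLK13 lie below 1 RPM.

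The starts of KLK3 and KLK2 hold far fewer CG pairs than those of EEF1A1 and RPLP0, at a like share of G and C (61.0% and 60.7% against 60.7% and 58.3% over windows of 300 bases). Shown are the 250 bases before the RefSeq start of KLK3 and KLK2, the neighbours that took many reads in prostate cells, and of EEF1A1 and RPLP0, which every cell uses, written 5′ to 3′ in the sense of the gene with each CG pair in capitals. In build GRCh38.p14 they are chr19:50854665-50854914 on the plus strand (KLK3), chr19:50873189-50873438 on the plus strand (KLK2), chr6:73521033-73521282 on the minus strand (EEF1A1) and chr12:120201112-120201361 on the minus strand (RPLP0).
KLK3: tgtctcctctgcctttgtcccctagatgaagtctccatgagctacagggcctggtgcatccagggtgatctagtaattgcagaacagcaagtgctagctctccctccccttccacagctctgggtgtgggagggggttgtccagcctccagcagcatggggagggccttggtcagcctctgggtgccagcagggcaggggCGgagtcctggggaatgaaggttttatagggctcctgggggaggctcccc
KLK2: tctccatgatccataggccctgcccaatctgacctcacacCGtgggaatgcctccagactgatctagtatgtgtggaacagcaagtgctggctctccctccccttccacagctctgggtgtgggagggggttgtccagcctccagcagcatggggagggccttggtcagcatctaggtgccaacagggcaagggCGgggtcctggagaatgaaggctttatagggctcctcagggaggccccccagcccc
EEF1A1: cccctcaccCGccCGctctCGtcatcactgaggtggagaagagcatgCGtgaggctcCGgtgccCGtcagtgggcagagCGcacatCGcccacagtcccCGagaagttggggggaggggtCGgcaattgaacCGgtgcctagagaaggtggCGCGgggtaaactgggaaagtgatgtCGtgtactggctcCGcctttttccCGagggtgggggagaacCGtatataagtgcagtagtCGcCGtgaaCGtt
RPLP0: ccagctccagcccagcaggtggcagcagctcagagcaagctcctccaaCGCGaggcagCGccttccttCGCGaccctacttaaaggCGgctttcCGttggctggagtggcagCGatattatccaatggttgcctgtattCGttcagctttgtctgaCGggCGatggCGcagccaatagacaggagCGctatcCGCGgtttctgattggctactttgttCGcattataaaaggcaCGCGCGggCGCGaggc

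These stretches hold 1 CG pair in KLK3, 2 in KLK2, 20 in EEF1A1 and 21 in RPLP0. Over windows of 300 bases (250 before to 50 after the start), the CpG count was set against the count that the C and G content would give. That ratio was 0.07 for KLK3, 0.11 for KLK2, 0.89 for EEF1A1 and 0.98 for RPLP0. A window could be matched for 11 of the 13 kallikrein genes, and 0 of these 11 reached a ratio of 0.6, with a median of 0.18. Of 68 matched ribosomal protein windows, 66 reached it (97.1%), with a median of 0.91. Over all 13751 matched rows, 73.0% reached it, with a median of 0.80. KLK4 had a ratio of 0.14, and the highest of the 11 was 0.54 in KLK7, the single off gene among them.

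The letters AGAACA or their reverse complement TGTTCT, known as the core of steroid receptor elements, were searched on both strands. These exact letters occurred in 1 of the 11 kallikrein windows, that of KLK3, beginning 170 bases before its start. Of all matched windows, 10.2% held them, and so did that of EEF1A1, past its start. In the stretch that KLK2 shares with KLK3, KLK2 reads GGAACA, which differs by 1 letter and was not counted. The windows of KLK3 and KLK2 were alike, with 245 of 291 aligned bases identical (84.2%) and 18 gap positions.

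Markers of the other cell types of the prostate included 0 abundant genes over the basal, neuroendocrine, fibroblast, endothelial and leukocyte lists. Over all rows 3.64% were abundant, so 0 in such short lists is close to that share. Of 11 basal epithelial genes, 4 were on (36.4%) and 4 off (36.4%), against 61.3% and 18.3% of all rows. ITGA6 and ITGB4, the integrin pair of hemidesmosomes, were on with 7.47 and 7.58 RPM and with 4.11 and 4.58 RPM, the basal keratin KRT14 had 2.53 RPM in both, and COL17A1, a hemidesmosome collagen, had 1.01 and 1.05 RPM. KRT17 and KRT15 were off, with 2 and 2 reads and with 0 and 4 reads. The basal list summed to 15.6 and 16.5 RPM, and the luminal list to 5386 and 5640 RPM. KRT5 and TP63 are not analysed here.

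Of 13 neuroendocrine genes, 3 were on (23.1%) and 8 were off (61.5%), against 61.3% and 18.3% of all rows. CHGA, the granin of secretory granules, and SOX2 were at 0 in both libraries, INSM1 had 4 and 1 reads and NCAM1 had 3 and 3. DLL3, a Notch ligand and a drug target in small cell cancers, was on with 14.1 and 15.7 RPM, and ONECUT2 and the enolase ENO2 were on with 3.19 and 2.10 RPM and with 2.21 and 3.38 RPM. SYP, the vesicle protein synaptophysin, had 0.807 and 1.24 RPM, on either side of the threshold. The list summed to 20.7 and 22.8 RPM, and DLL3 held most of it in both libraries.

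Fibroblast and smooth muscle genes were on in 4 of 13 cases (30.8%) and off in 5 (38.5%), against 61.3% and 18.3% of all rows. COL1A1, the first chain of collagen I, had 9.62 and 11.8 RPM, while COL1A2, the chain it pairs with, had 6 and 9 reads. The others on were FBLN1, fibulin 1 (3.002 and 2.72 RPM), ACTA2, smooth muscle actin (2.51 and 2.29), and PDGFRB, a growth factor receptor of pericytes (2.08 and 2.29). PDGFRA and POSTN were at 0 in both, and DCN and LUM were off. Among 6 endothelial genes only VWF was on, with 5.23 and 6.47 RPM, and PECAM1, TIE1, TEK and ROBO4 were off. None of the 8 leukocyte genes was on and 4 were off, including CD3E with 1 and 0 reads; SPI1, with 0.807 and 0.771 RPM, came nearest to the threshold. Beside KLK3 at 1454 and 1477 RPM, the fibroblast list summed to 17.9 and 20.1 RPM, the endothelial list to 5.46 and 6.55 RPM and the leukocyte list to 1.46 and 1.97 RPM.

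The epithelial junction genes were on nearly throughout, 26 of 27 with 0 off, against 61.3% on and 18.3% off over all rows. JUP, plakoglobin of desmosomes and adherens junctions, had 297 and 373 RPM. CDH1, E-cadherin, had 115 and 129.8 RPM, and CTNNA1, alpha-catenin, which links it to actin, 113 and 137 RPM. The tight junction claudins CLDN4, CLDN7 and CLDN3 had 124 and 137, 105 and 102, and 93.1 and 97.1 RPM. CLDN1, another claudin, had 10 and 1 reads and was the member that was not on. The epithelial factor GRHL2 had 74.1 and 78.9 RPM, and the epithelial splicing factors ESRP1 and ESRP2 had 38.3 and 35.9 and 24.6 and 31.1 RPM.

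Of 12 mesenchymal genes, 5 were on (41.7%) and 5 off (41.7%), against 61.3% and 18.3% of all rows. CDH2, N-cadherin, was at 0 in both libraries, and ZEB2, TWIST2, MMP2 and MMP9 had 0 and 1 reads each. VIM, the mesenchymal filament protein vimentin, had 3.002 and 3.55 RPM. SNAI1 and SNAI2, repressors of E-cadherin, had 2.31 and 2.68 and 1.86 and 2.23 RPM. FN1, fibronectin, stood apart from the rest of the list with 51.2 and 65.9 RPM. ZEB1 is not analysed here.

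Of 27 keratin genes, 7 were on (25.9%) and 17 off (63.0%), against 61.3% and 18.3% of all rows. Beside KRT8 and KRT18, the genes that were on were KRT10 (8.76 and 9.16 RPM), KRT19 (3.43 and 2.997), KRT80 (2.51 and 3.70), KRT14 and KRT6C (1.07 and 1.58). KRT6C has near-identical relatives, and its value is uncertain. KRT7, a keratin of many ducts, had 6 and 2 reads, and KRT20 of the intestine had 2 and 2.

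Among 43 nuclear receptors, 27 were on (62.8%, close to the 61.3% of all rows) and 9 were off. RXRA, the partner of many other receptors, had 87.4 and 103 RPM, NR2F6 73.1 and 84.4 RPM, NR2F2 71.5 and 75.7 RPM, and NR1H2, a sterol receptor, 66.4 and 66.7 RPM. VDR, the vitamin D receptor, had 15.9 and 20.9 RPM. Several steroid receptors took few reads: ESR1 was at 0 in both libraries, ESR2 had 7 and 7 reads, PGR 3 and 5, and the glucocorticoid receptor gene NR3C1 7 and 1. NR3C2, the mineralocorticoid receptor gene, had 4.69 and 4.95 RPM.

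Genes listed for androgen metabolism were on in 7 of 24 cases (29.2%, against 61.3% of all rows). The list includes STAR and is not confined to enzymes that act on androgens alone. SRD5A1, a 5-alpha-reductase that makes dihydrotestosterone, had 15.6 and 14.5 RPM, and SRD5A2, the isoform of normal prostate, had 3 and 0 reads. HSD17B10 and HSD17B4 had 57.0 and 57.4 and 52.0 and 53.0 RPM. STS, which frees steroids from sulfate, had 8.39 and 8.16 RPM. CYP17A1, which makes androgen precursors, had 2 and 3 reads, and HSD3B1 had 3 and 7. AKR1C3 had 5 and 2 reads, and the glucuronidating UGT2B15 and UGT2B17, which inactivate androgens, had 7 and 7 and 4 and 3. The AKR1C and UGT2B genes have near-identical copies, so these low values are uncertain.

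The HOX genes, which encode position along the body, were on in 17 of 34 cases (50%, against 61.3% of all rows). HOXB13 held most of the HOX reads, with 265 and 293 RPM of a summed 366 and 402 RPM. In the HOXC cluster 8 of 9 genes were on, in HOXA 4 of 11, in HOXB 4 of 9 and in HOXD 1 of 5. Next in reads came HOXC6 (16.7 and 18.2 RPM), HOXC13 (16.3 and 17.7) and HOXA10 (11.3 and 11.8). HOXD13 was the single HOXD gene on, with 2.40 and 2.57 RPM, and HOXC11 was the single HOXC gene off, with 4 and 2 reads. HOXA9, a neighbour of HOXA10, had 1 and 2 reads.

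Of 28 ETS transcription factors, 17 were on (60.7%) and 5 off (17.9%), near the 61.3% and 18.3% of all rows. SPDEF and EHF, factors of epithelium, led with 141 and 164 RPM and with 154 and 120.2 RPM, and ELF3 and ELF5 had 13.5 and 14.9 and 14.1 and 16.5 RPM. The ETS genes known for rearrangements in prostate cancer took few reads: ERG had 3 and 7 reads, ETV4 4 and 6, ETV5 20 and 16, FLI1 3 and 0, and ETV1 2 and 1. LNCaP, the parent line, is known for a rearrangement that activates ETV1; in this table ETV1 was off, at 0.0375 and 0.0214 RPM.

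Among 18 transcription factors that mark other lineages, 3 were on (16.7%, against 61.3% of all rows). They were the pancreatic PDX1 (3.55 and 4.88 RPM), the bone factor RUNX2 (3.40 and 3.13) and the melanocyte factor MITF (2.27 and 2.40). GATA1 and GATA4 had 1 read in each library, and NKX2-1 of lung and thyroid 5 and 2. None of the 38 olfactory receptor genes was on and 31 were off (81.6%, against 18.3% of all rows). OR51E2, which is known as a prostate-specific receptor, was off with 1 and 2 reads, and its neighbour in name OR51E1 had 13 and 17. Of 20 genes typical of a single other tissue, 3 were on. MBP, myelin basic protein, was one, with 34.8 and 35.9 RPM, while ALB of liver had 1 and 2 reads and GFAP of astrocytes, GCG of pancreas and UMOD of kidney had 0 in both.

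**Figure D4:**
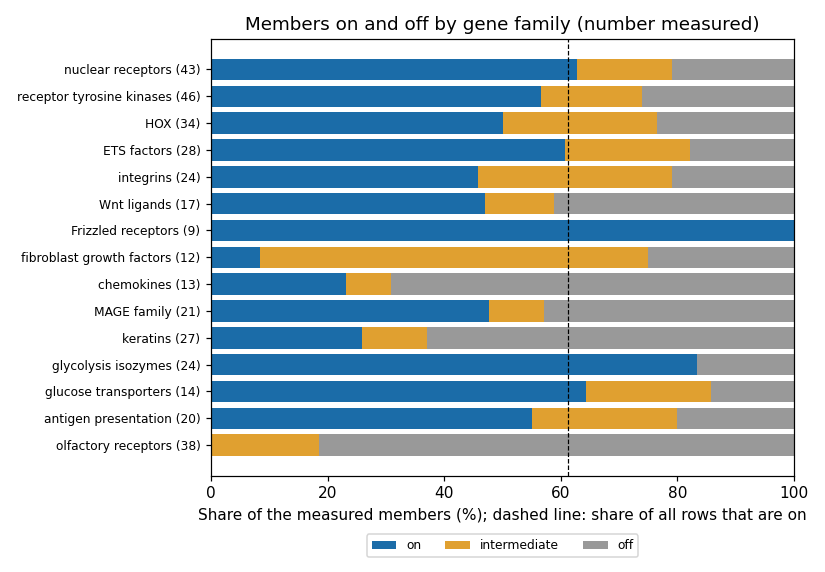
Share of the measured members (horizontal axis, percent) that were on, intermediate and off in 15 gene families (vertical axis, number measured in parentheses); the dashed line marks the 61.3% of all rows that were on. All 9 Frizzled genes were on, and 0 of 38 olfactory receptors were.

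Receptor tyrosine kinases, the cell-surface receptors of growth factors, were on in 26 of 46 cases (56.5%, near the 61.3% of all rows) and off in 12 (26.1%, against 18.3%). DDR1, a collagen receptor, had 104 and 127 RPM, and ERBB3, a neuregulin receptor with a weak kinase, 112 and 116 RPM. ERBB2, its signalling partner, had 41.3 and 51.1 RPM and EGFR 17.3 and 20.1 RPM. The insulin and IGF receptor genes INSR and IGF1R had 10.7 and 11.6 and 8.93 and 9.48 RPM. MET, the receptor of hepatocyte growth factor, was not on, with 0.469 and 0.278 RPM, and AXL had 7 and 4 reads. KIT had 0 and 3 reads, and PDGFRA and TEK were at 0 in both.

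In the PI3K and AKT pathway, which carries their signal, 22 of 26 genes were on (84.6%, against 61.3% of all rows). AKT1 and AKT2 had 120.4 and 136 and 105 and 115 RPM. The catalytic subunit genes split: PIK3CB had 34.3 and 30.7 RPM and PIK3CD 30.8 and 37.5 RPM, while PIK3CA had 1.29 and 0.985 RPM. INPP4B, a phosphatase of the pathway, had 2.23 and 1.61 RPM. RPTOR, of mTOR complex 1, had 34.2 and 40.5 RPM and RICTOR, of mTOR complex 2, had 0.825 and 0.321 RPM.

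All 25 proliferation genes were on, against 61.3% of all rows. MCM7, a subunit of the replicative helicase, had 80.0 and 93.9 RPM, and FOXM1, a factor for mitotic genes, 62.6 and 76.5 RPM. MKI67, the Ki-67 antigen, had 6.81 and 7.75 RPM and TOP2A 5.80 and 5.16 RPM. CENPF, of the kinetochore, was the lowest with 2.10 and 1.01 RPM.

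Of 23 cyclins, cyclin-dependent kinases and their inhibitors, 19 were on (82.6%) and 1 off (4.35%), against 61.3% and 18.3% of all rows. CDKN1A, the inhibitor p21, was abundant with 335 and 323 RPM, and CCND1, cyclin D1, had 181 and 202 RPM beside its kinase CDK4 with 119.97 and 123 RPM. CDK6, the other kinase of D cyclins, had 1.63 and 1.56 RPM. CCND2 had 10 and 5 reads and CCNA1, a germ cell cyclin, was off with 2 and 4. RB1, the retinoblastoma gene, had 10.1 and 8.82 RPM, and CDKN2A 14.97 and 14.3 RPM.

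CDCA8 and EZH2, the targets of the series' other hairpins, belong to complexes whose listed genes were all on in the controls. Over all rows 61.3% were on. All 4 genes of the chromosomal passenger complex, which guides chromosome segregation, were on: BIRC5, survivin, had 44.7 and 46.6 RPM, CDCA8, borealin, 14.2 and 16.5 RPM, INCENP, the scaffold, 12.7 and 14.2 RPM and AURKB, the kinase, 11.6 and 12.2 RPM. All 11 genes of Polycomb repressive complex 2, which methylates histone H3 at lysine 27, were on. EZH2, its main methyltransferase, had 11.3 and 9.72 RPM, and EZH1, the related enzyme, had 9.83 and 11.2 RPM. SUZ12 had 10.5 and 6.96 RPM and EED 2.55 and 2.80 RPM, and the histone-binding RBBP4 and RBBP7, which other complexes share, had 71.0 and 84.2 and 77.8 and 83.5 RPM.

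All 8 mismatch repair genes were on (against 61.3% of all rows), at low levels. PMS2, an endonuclease of the pathway, had 19.2 and 22.1 RPM. MSH6, which recognises mismatches, had 5.65 and 7.28 RPM, MSH3 3.83 and 3.64 RPM, and EXO1, the exonuclease, 2.80 and 2.50 RPM.

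In glycolysis 20 of 24 isozyme genes were on (83.3%) and 4 off (16.7%), against 61.3% and 18.3% of all rows. The list held 1.30% and 1.42% of the reads. GAPDH had 1648 and 1876 RPM, ENO1, enolase, 904 and 1062 RPM, and PKM, pyruvate kinase, 422 and 504 RPM. Among the genes that were off were PKLR, the pyruvate kinase of liver and red cells, with 4 and 2 reads and HK3, a hexokinase, with 2 and 2. HK1, the common hexokinase, had 75.8 and 89.0 RPM and HK2 18.6 and 24.4 RPM. Of 14 glucose transporter genes 9 were on (64.3%, near the 61.3% of all rows). SLC2A1, which encodes GLUT1, had 22.9 and 28.1 RPM, and SLC2A12, known for prostate, 15.3 and 14.3 RPM. The 27 genes of the citrate cycle and citrate handling were all on, against 61.3% of all rows. MDH2 had 256 and 298 RPM and CS, citrate synthase, 217 and 243 RPM.

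Lipid synthesis genes were on in 30 of 33 cases (90.9%, against 61.3% of all rows) with 0 off (against 18.3%). FASN, fatty acid synthase, had 349 and 480.4 RPM, and ELOVL5, an elongase of polyunsaturated fatty acids, 353 and 354 RPM. SCD, the desaturase, had 211 and 263 RPM, and SREBF1, the factor for these genes, 155 and 196 RPM. In cholesterol synthesis FDFT1, squalene synthase, had 157 and 174 RPM and SQLE, squalene epoxidase, 15.6 and 14.9 RPM. The acyl-CoA synthetase ACSL4 was not on, with 0.431 and 0.150 RPM, while ACSL3 and ACSL1 had 61.6 and 55.2 and 92.4 and 100.2 RPM.

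Prostate epithelium is known for secretion and for its zinc and polyamines. Of 26 genes of the secretory pathway, 25 were on (96.2%) and 13 abundant, against 61.3% and 3.64% of all rows. CALR, the chaperone calreticulin, had 685 and 723 RPM, P4HB, a disulfide isomerase, 612 and 652 RPM, and XBP1, a factor of the unfolded protein response, 236 and 249.6 RPM. In polyamine synthesis 13 of 14 were on (92.9%, against 61.3% of all rows). ODC1, its rate-limiting decarboxylase, had 813 and 913 RPM, its inhibitor OAZ1 had 736 and 727 RPM, and AMD1 had 76.5 and 59.8 RPM. Of 29 zinc transporter and metallothionein genes 20 were on (69.0%, against 61.3% of all rows). SLC39A1, a zinc importer of prostate, had 55.1 and 61.4 RPM and MT2A, a metallothionein, 38.3 and 40.8 RPM. MT1G had 2 and 0 reads and MT1E 2 and 1. The metallothioneins are near-identical, so their low values are uncertain.

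Iron genes were on in 10 of 13 cases (76.9%, against 61.3% of all rows). Beside FTH1, the ferritin light chain FTL had 443 and 446 RPM, and TFRC, the transferrin receptor, had 50.7 and 44.2 RPM. HMOX1, which breaks down heme, had 10.5 and 9.31 RPM. SLC40A1, the only known iron exporter, was not on, with 0.582 and 0.535 RPM, and HAMP, hepcidin, had 1 and 0 reads.

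The antigen presentation list mixes class I, class II and proteasome genes, and 11 of its 20 genes were on (55.0%, against 61.3% of all rows) and 4 off. B2M, the light chain of class I, had 84.0 and 80.7 RPM, HLA-C 51.1 and 55.4 RPM and HLA-B 16.002 and 18.5 RPM. The HLA genes are alike and vary between individuals, so counts on a reference are uncertain. The interferon-induced immunoproteasome subunits PSMB9 and PSMB8 had 5 and 2 reads and 0.582 and 0.685 RPM. Class II genes were off or intermediate: CD74 had 0 and 1 reads, HLA-DRA 1 and 4, and their activator CIITA 1 and 0.

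Of 13 chemokine genes 3 were on (23.1%) and 9 off (69.2%), against 61.3% and 18.3% of all rows. CXCL12, known mainly from stroma, had 49.5 and 52.8 RPM, CXCL16 had 47.7 and 53.7 RPM, and CCL5 had 1.44 and 2.03 RPM. Of 24 integrin genes 11 were on (45.8%, against 61.3% of all rows), led by ITGB1, the most shared beta subunit, with 68.9 and 50.03 RPM, and ITGB5 with 26.0 and 28.6 RPM. Of 12 fibroblast growth factor genes 1 was on (8.33%, against 61.3% of all rows), the intracellular FGF13 with 5.48 and 5.07 RPM. Of 17 Wnt ligand genes 8 were on (47.1%, against 61.3% of all rows). WNT7B took most of the Wnt ligand reads with 39.8 and 44.7 of a summed 66.3 and 72.6 RPM. All 9 Frizzled receptors, which bind Wnt ligands, were on, against 61.3% of all rows. They were led by FZD5 (17.6 and 20.5 RPM) and FZD1 (17.0 and 20.9 RPM).

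The MAGE genes, of which the MAGEA group is normally kept to germ cells, were on in 10 of 21 cases (47.6%, against 61.3% of all rows) and off in 9 (42.9%, against 18.3%). The ubiquitous MAGED1 had 134 and 156 RPM. In the MAGEA group, MAGEA3 had 47.0 and 48.1 RPM, MAGEA12 46.1 and 46.2 RPM, MAGEA6 37.6 and 42.4 RPM, MAGEA1 25.9 and 25.6 RPM and MAGEA10 8.74 and 10.0 RPM, while MAGEA4 had 0.338 and 0.621 RPM and MAGEA8 3 and 0 reads. MAGEA11 was off with 1 read in each library. MAGEA3 and MAGEA6 are near-identical, and MAGEA2 and MAGEA12 are close relatives, so reads may be split between them.

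Of 56 clustered histone genes, 19 were on (33.9%) and 11 off (19.6%), against 61.3% and 18.3% of all rows, and 26 were intermediate. HIST1H2BK had 119 and 121 RPM and HIST2H2BE 74.4 and 83.6 RPM, and both are known to give polyadenylated transcripts. Most histone messages end without a poly(A) tail, and these libraries hold polyA RNA; HIST1H4C had 1 and 5 reads and HIST1H1B 19 and 15. Among 26 actins and tubulins 19 were on (73.1%, against 61.3% of all rows). ACTB had 1907 and 2076 RPM, ACTG1 1061 and 1128 RPM and TUBB 404 and 468 RPM, and the muscle actin ACTA1 had 7 and 8 reads.

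The libraries agreed closely. Over 18892 genes, log2(RPM + 1) had a Pearson correlation of 0.997 and RPM a Spearman correlation of 0.989; this is a description across genes, which are not independent replicates. Beyond counting error, the spread between the libraries was a coefficient of variation of 5.55% over the 4461 genes whose mean reached 20 RPM. It was 12.7% at 1 to 10 RPM, 6.36% at 10 to 100 RPM, 4.51% at 100 to 1000 RPM and 2.41% over the 26 genes above that. Of 6722 genes whose mean reached 10 RPM, 39 lay at least 1.5-fold apart (0.58%), 35 of them higher in replicate 1 and 4 higher in replicate 2, and 0 lay 2-fold apart. The median ratio of replicate 2 to replicate 1 was 1.07, or 0.10 on the log2 scale, and a larger part of replicate 2 fell in the gene rows (43.6% against 41.1%); the part of this in the ratio was not tested.

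Among genes whose mean reached 10 RPM, those farthest apart were not lineage markers. Most markers of the other cell types lay below 10 RPM and could not appear here. KIF5B, a kinesin motor, had 18.9 and 9.74 RPM (1.94-fold), LRRC58 31.4 and 16.2 RPM, MAPK6, an atypical MAP kinase, 31.0 and 16.1 RPM, and HIPK3 17.3 and 9.53 RPM, all higher in replicate 1. CKAP5, a microtubule polymerase, had 9.89 and 16.2 RPM (1.63-fold), DNMT1, the maintenance DNA methyltransferase, 26.0 and 40.2 RPM, NCL, nucleolin, 101 and 155 RPM and CEP131 9.74 and 14.9 RPM, all higher in replicate 2. MALAT1, a nuclear long non-coding RNA, had 30.1 and 16.8 RPM. With 1 group of 2 libraries there is no test of these differences.

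**Figure D5:**
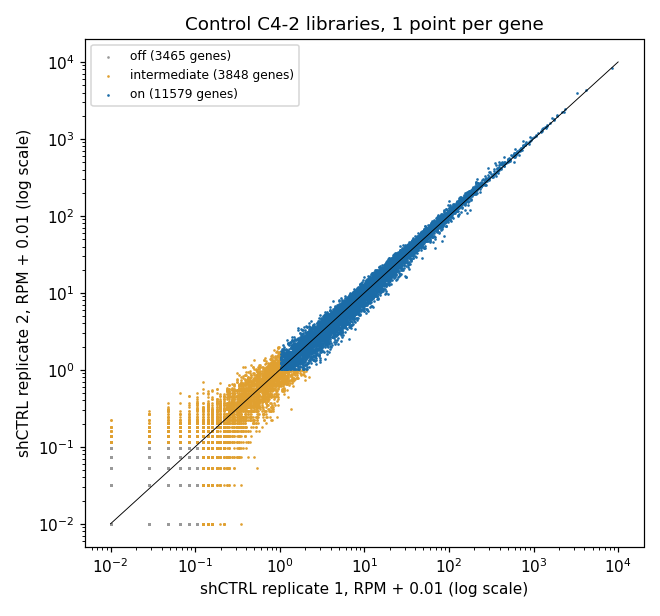
RPM plus 0.01 in replicate 2 (vertical axis, log scale) against replicate 1 (horizontal axis, log scale), 1 point per gene, coloured by on (11579 genes), intermediate (3848) and off (3465); the line marks equal values. Points above 10 RPM hug the line, and the spread widens below 1 RPM, where a value rests on few reads.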

How the data were processed

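For the 2 control polyA RNA libraries of C4-2 cells the labels' protocols describe Qiagen extraction with DNBseq sequencing at BGI and also a Zymo extraction with Illumina preparation, and which of these applies is undecided here. The authors deposited RPM values per gene, and TopHat, HTSeq, cutadapt, edgeR and the build hg19 are named, per the submitters' processing notes, without versions or roles. Every value was a whole multiple of what 1 read is worth in its library (tolerance 0.01, 100% of values), so whole reads were recovered. The sources used here do not say how the scaling totals were chosen.

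Counts on, off and abundant, shares, ranks and ratios were computed with Python 3.11.15 and pandas 2.3.3. The between-library spread was computed beyond counting error, tested on simulated data, and repeated with edgeR 4.0.16 on the recovered counts. Alternatives changed the thresholds, scaling, pseudocount (1), minimum levels and libraries. No group comparison was made and no p-value computed. Genes were matched by symbol to RefSeq (18158 of 18892 rows), and promoter windows of GRCh38.p14 to 13751 rows (the first listed start per gene). The named genes are the 15 with most reads, the largest ratios between libraries and members of 44 fixed lists, of which the text names those that mark each role. The members and lists were chosen with earlier results of these data known. After matching, integrin-binding proteins and KLKB1 were dropped from 2 lists that had caught them. List members with no row are not analysed here.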

Additional observations from a re-analysis of the deposited data

How the results depend on the processing

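The number of genes on was 11579 and moved between 8457 and 12748 with the thresholds and scaling, and was 11771 or 11777 with 1 library left out. The number off was 3465. It was 5874 with on at 5 RPM and off below 0.5 RPM, 2355 with on at 0.5 RPM and off below 0.05 RPM, and 2355 scaled to reads in the gene rows; without 1 library it ranged from 3870 to 4018. The share of reads in the top 100 genes (mean of both libraries 23.4%) was 19.1% without ribosomal protein genes and 23.3% to 23.5% with 1 library left out. The correlation of 0.997 became 0.994 with a pseudocount of 0.1, 0.997047 with a pseudocount of 5, 0.993 at a mean of at least 1 RPM and 0.991 at 10 RPM. The number of genes 1.5-fold apart (39) was 490 of 11777 genes at 1 RPM, 5 of 1888 at 50 RPM, and 73 with the ratios centred on their median, 72 of them higher in replicate 1 and 1 in replicate 2. The spread of 5.55% was 4.36% at 100 RPM and 6.81% at 5 RPM. From edgeR with TMM scaling it was 6.95%, the square root of the common dispersion. Of the 88 counts of list members on or off, 71 stayed within 1.5 times at thresholds of 0.5 and 0.05 RPM, 51 at 5 and 0.5 RPM, 71 scaled to reads in the gene rows, 86 without replicate 1 and 83 without replicate 2.

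No paired analysis was possible because the 2 libraries form a single group with no test. An order scaled by gene length was not run, since no lengths were used here. A comparison of promoter CpG content between abundance classes is void, since a window was matched for only 56.4% of the off genes and 64.9% of the intermediate ones, under 80%. At 0.1 RPM a value rests on few reads, so the line between off and intermediate is set by depth.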

Other observations

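Of the 100 genes with most reads, 72 were members of a list and 28 of none. Chosen after their values were seen, those 28 included NFIX, a nuclear factor I transcription factor, with 755 and 931 RPM, SORD, sorbitol dehydrogenase, with 692 and 732 RPM, ATF4, the transcription factor of the integrated stress response, with 662 and 677 RPM, GDF15, a secreted stress cytokine, with 570.4 and 600.03 RPM, ABHD2, a lipase, with 543 and 615 RPM, and FADS2, a fatty acid desaturase, with 391 and 506 RPM. Genes known as ATF4 targets for amino acid supply, also taken up after the data were seen, were on in both libraries: SHMT2, of mitochondrial serine use, had 368 and 376 RPM, PHGDH, the first step of serine synthesis, 287 and 314 RPM, PYCR1, of proline synthesis, 276 and 302 RPM, PSAT1 251 and 259.9 RPM, ASNS, asparagine synthetase, 234 and 267 RPM and the amino acid transporter SLC7A5 249 and 291 RPM. The cystine transporter SLC7A11 had 48.7 and 28.7 RPM, a wider gap between the libraries than the others named here.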
